A study of Homo sapiens with 6 samples.

Results

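The interferon regulatory factors (IRFs) are a family of transcription factors, and 8 of its genes, IRF1 to IRF5 and IRF7 to IRF9, were followed here among the 19402 genes of the deposited count table. They were taken by family membership, by matching each gene identifier to its symbol. The data are counts of reads per gene from poly(A)-selected RNA of CFPAC1, a cell line from a human pancreatic ductal adenocarcinoma. The WT group was 3 pools of clones grown from cells infected with the lentiCRISPR v2 plasmid, and the IRF1-KO group was 3 pools of clones grown from cells infected with that plasmid carrying wild-type Cas9 and a guide RNA against IRF1. All cells were grown in IMDM with serum, and no interferon treatment is given for these 6 libraries. A pool averages over its clones, and the sources used here give neither the edit in each clone nor the guide sequence. The labels leave unsaid whether the pools were cultured separately, and a p-value here measures only how far these pools spread, which may be technical.

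IRF proteins share an amino-terminal DNA-binding domain that recognises the interferon-stimulated response element (ISRE), whose core repeats GAAA. IRF1 is an activator whose own gene is switched on by interferon, and IRF2 binds the same sites and in many settings opposes it. IRF9 is the DNA-binding subunit of ISGF3, the complex that carries the type I interferon signal and also holds STAT2. IRF3 and IRF7 are phosphorylated by the kinase TBK1 after viral sensing and switch on interferon genes, IRF5 acts below Toll-like receptors, and IRF4 and IRF8 work mainly in lymphoid and myeloid cells.

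Promoter windows from RefSeq (GRCh38.p14), each running from 250 bases before to 50 bases after a transcription start, were listed for 5 of the 8 members (IRF1, IRF4, IRF5, IRF8 and IRF9) in 9 windows. The gamma-activated site (GAS), a promoter element of interferon-gamma signalling, was searched as TTCNNNGAA, which reads alike on both strands. It matched in 2 of the 9 windows, those of IRF1 and IRF9, and in 7.66% of all 35116 windows. The ISRE core, searched on both strands as GAAA, any 2 bases and GAAA again, matched in 0 of the 9 and in 3.57% of all windows. The stretches around the GAS matches are shown because these genes are the members furthest apart in their difference between groups. Both are written 5′ to 3′ along the gene, with the GAS match in capitals and 10 bases on each side. The IRF1 match lies from −124 to −116 on the minus strand (stretch chr5:132490879-132490907), and the IRF9 match from −63 to −55 on the plus strand (stretch chr14:24161192-24161220).
IRF1: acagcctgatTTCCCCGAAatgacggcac
IRF9: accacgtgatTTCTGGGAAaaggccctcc
The IRF1 match sits in the following 246 bases upstream of the first counted exon (chr5:132490778-132491023, minus strand), again with the match in capitals.
IRF1 upstream: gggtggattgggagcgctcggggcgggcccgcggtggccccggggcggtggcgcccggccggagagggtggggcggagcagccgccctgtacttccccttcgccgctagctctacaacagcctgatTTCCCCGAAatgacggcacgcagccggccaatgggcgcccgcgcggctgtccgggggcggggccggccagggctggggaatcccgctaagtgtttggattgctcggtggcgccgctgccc
A match is a description of letters in the window and does not show that a factor was bound in these cells.

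Library totals ranged from 16413682 to 28258075 counts, and 13388 genes were counted deeply enough to be tested, with a median log2 fold change of −0.02. All 9 epithelial markers, as the label's cell type calls for, were tested, with summed levels of 4573 to 7851 CPM (counts scaled by sequencing depth) for WT and 5208 to 7274 CPM for IRF1-KO. WT replicate 3 stood apart among them, with CDH1 (E-cadherin) at 107 CPM against 499 and 378 CPM in the other WT pools and KRT7 (keratin 7) at 157 against 508 and 480 CPM. Without that library the log2 fold changes described below were 0.50 for IRF1, −0.47 for IRF2 and −0.70 for IRF9. Fibroblast markers summed to 33.0 to 50.4 CPM for WT and 38.6 to 76.6 CPM for IRF1-KO, most of it COL1A1, a collagen gene. COL1A2, another collagen gene, was at 7.35 CPM in WT replicate 3 and 6.04 CPM in IRF1-KO replicate 1, against at most 0.707 CPM elsewhere. PDGFRA was highest in the same libraries, at 5.53 and 5.37 CPM, followed by 3.90 CPM in IRF1-KO replicate 3. Endothelial, acinar and islet markers summed to at most 3.08, 0.488 and 0.0610 CPM in any library. Of 11 leukocyte markers, 10 had at least 1 count in some library and MS4A1, a B-cell marker, had 0 in all 6. PTPRC, which encodes the pan-leukocyte protein CD45, had 10 counts over the 6 libraries, and SPI1, the myeloid factor PU.1 and a partner of IRF4 and IRF8, had 5. The summed leukocyte markers were 171 to 213 CPM for WT and 144 to 180 CPM for IRF1-KO. CD68, which is also found in lysosomes of other cells, made up 126 to 184 CPM of that for WT and 127 to 153 CPM for IRF1-KO. LYZ, the lysozyme gene, was at 28.8, 75.0 and 25.6 CPM across the WT pools and at 13.4, 22.5 and 24.5 CPM across the IRF1-KO pools, with no overlap (edgeR adjusted p = 0.535), and its part in other differences was not tested.

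Of the 8 members, 6 passed the filter on low counts. None of the 6 reached an adjusted p below 0.05 in edgeR's quasi-likelihood test, with Benjamini-Hochberg adjustment over all 13388 genes. That threshold was passed by 0.127% of all tested genes, 0.0149% in the higher and 0.112% in the lower direction. Before adjustment, at p below 0.05, IRF1 was higher and IRF2 and IRF9 were lower for IRF1-KO, beside 5.39% of all tested genes that were higher, 3.75% that were lower and 9.14% in either direction. DESeq2 called 1 member, IRF1, higher, beside 2.48% of all tested genes (1.52% higher and 0.964% lower), and limma-voom called 0. The same 3 members had no overlap of CPM between the groups, as did 14.8% of all tested genes, 8.03% with IRF1-KO higher and 6.75% with IRF1-KO lower. The members thus differed in direction, and none of their differences held after adjustment in edgeR.

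**Figure D1:**
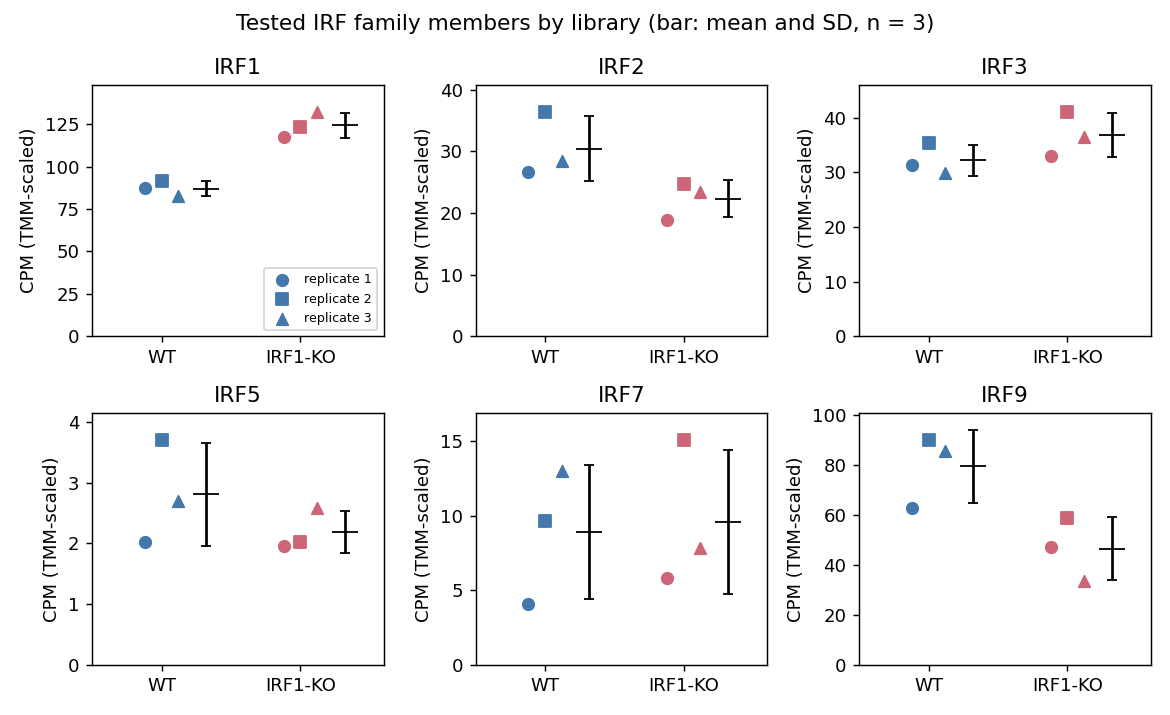
Level of each tested IRF gene in CPM (vertical axis, from 0) for the 3 WT and 3 IRF1-KO libraries (points, with a marker shape for each replicate), with the mean and SD at the right of each group. IRF1 libraries lie higher in IRF1-KO, IRF2 and IRF9 libraries lie lower, and the groups overlap for IRF3, IRF5 and IRF7.

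IRF1, the targeted gene, lies on the minus strand of chromosome 5 (ENSG00000125347.14; 132481609 to 132490777 in GRCh38). WT pools 1 to 3 gave 87.3, 91.3 and 82.6 CPM, and IRF1-KO pools 1 to 3 gave 117, 123 and 132 CPM. Every library labelled IRF1-KO therefore held more IRF1 transcript than every WT library, and the fitted group difference was 1.43-fold (log2 fold change 0.51, 95% interval 0.28 to 0.75). Its edgeR adjusted p was 0.135. DESeq2 put the change at 0.52 on the log2 scale, adjusted p = 0.00105, and over the 15 alternatives the adjusted p ranged from 0.00105 to 0.451. The counted exons cover 7778 of the 9169 bases of the gene, so reads from almost any part of it, introns kept in some annotated transcripts included, enter its count. In GENCODE 29, C5orf56 and a protein-coding gene, both outside the table, overlap IRF1 on the opposite strand, so without a stated strand setting its count can include their reads. The counts do not show the edit itself, since a short insertion or deletion need not lower them, and every direction given is that of libraries carrying the label IRF1-KO.

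IRF2, the antagonist (ENSG00000168310.11; chromosome 4, 184387729 to 184474550, minus strand), was at 26.6, 36.4 and 28.4 CPM across the WT pools, and at 18.9, 24.7 and 23.3 CPM across the IRF1-KO pools. The highest IRF1-KO library lay just below the lowest WT library, so the groups did not overlap, although the gap was narrower than the spread within WT. The log2 fold change was −0.45 (95% interval −0.84 to −0.06) and its adjusted p was 0.469 in edgeR. Leaving out WT replicate 2, the highest WT library, gave −0.30.

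Because IRF1 and IRF2 bind the same sites, their counts were also compared within each library, where library scaling cancels. WT replicates 1 to 3 held 3.28, 2.51 and 2.91 IRF1 counts per IRF2 count. IRF1-KO replicates 1 to 3 held 6.19, 5.0 and 5.66. The lowest IRF1-KO ratio stood above the highest WT ratio. The geometric mean was 2.88 in WT and 5.60 in IRF1-KO, a difference of 0.96 on the log2 scale (1.94-fold), against SDs of 0.19 in WT and 0.16 in IRF1-KO (n = 3 each). An exact permutation test, two-sided, gave p = 0.1, the smallest value that 3 against 3 libraries allow.

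**Figure D2:**
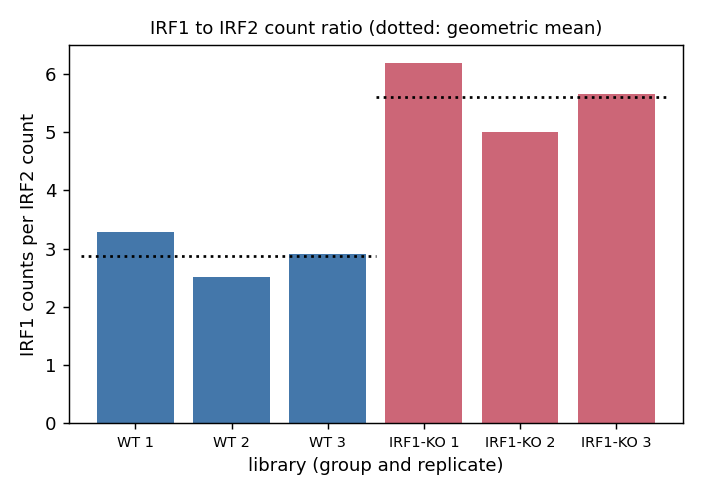
IRF1 counts per IRF2 count (vertical axis, from 0) in each library, with the geometric mean of each group as a dotted line. The 3 WT bars lie between 2.51 and 3.28 and the 3 IRF1-KO bars between 5.0 and 6.19.

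IRF9, the DNA-binding subunit of ISGF3 (ENSG00000213928.8; chromosome 14, 24161053 to 24166565, plus strand), was at 62.5, 89.8 and 85.7 CPM across the WT pools and at 47.0, 58.7 and 33.4 CPM across the IRF1-KO pools. All IRF1-KO libraries were below all WT libraries, but IRF1-KO replicate 2 and WT replicate 1 were close. The log2 fold change was −0.77 (95% interval −1.31 to −0.24), the largest in size among the 6 tested members, and the adjusted p was 0.315 in edgeR and 0.0537 in DESeq2. In GENCODE 29 a protein-coding readthrough transcript on the same strand, absent from the table, overlaps IRF9, so its count can include reads of that transcript.

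STAT2, a partner of IRF9 in ISGF3 that is named here after its values were seen, averaged 85.8 CPM over the WT pools and 56.1 CPM over the IRF1-KO pools. Its groups did not overlap, and the adjusted p was 0.299 (edgeR).

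The 27 ISGF3 target genes, all tested, had summed levels of 2080, 3638 and 3803 CPM across WT pools 1 to 3, against 1128, 1665 and 1119 CPM across the IRF1-KO pools. In both groups the library lowest in IRF9 was also the lowest in this sum, WT replicate 1 and IRF1-KO replicate 3, although in the sum IRF1-KO replicates 1 and 3 were nearly equal. All 27 had negative log2 fold changes, with a median of −1.61, beside −0.02 and 53.3% negative over all tested genes. None passed the adjusted threshold in edgeR. Before adjustment 25 were lower at p below 0.05, against 3.75% of tested genes, and DESeq2 called 17. The member with the smallest p was IFIT3, an interferon-induced antiviral protein, with means of 144 and 30.8 CPM (−2.22 ± 0.30, SE; edgeR adjusted p = 0.0663). Leaving out each library in turn called 0 to 6 of the 27, all lower, with 6 called without WT replicate 1.

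**Figure D3:**
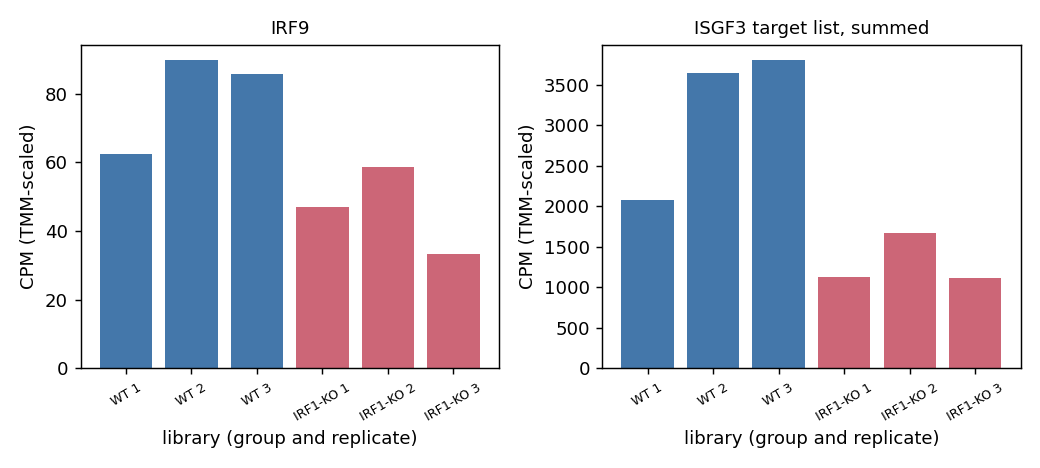
IRF9 level (left) and the summed level of the 27 ISGF3 targets (right) in CPM per library, both axes from 0. The lowest bar of each group is the same library in both panels, WT 1 and IRF1-KO 3.

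IRF3, the sensor-activated member (ENSG00000126456.16; chromosome 19, 49659569 to 49665875, minus strand), gave 31.4, 35.4 and 29.9 CPM across the WT pools and 33.0, 41.0 and 36.5 CPM across the IRF1-KO pools. The groups overlapped, with a log2 fold change of 0.19 (95% interval −0.11 to 0.50) and an edgeR adjusted p of 0.745. Its transcript GC content is 61.5%, and the value was 0.05 with the GC correction and 0.11 without IRF1-KO replicate 2. The IRF3 exons share 734 of 3794 bases with BCL2L12 on the opposite strand, so without a stated strand setting the counts of both are uncertain there.

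IRF7 (ENSG00000185507.20; chromosome 11, 612553 to 615999, minus strand) varied most within groups, relative to its mean, among the 6 tested members. Its levels were 4.10, 9.63 and 13.0 CPM across the WT pools and 5.85, 15.1 and 7.83 CPM across the IRF1-KO pools. The ranges of the groups overlapped in most of their length, with a log2 fold change of 0.11 (95% interval −1.03 to 1.25; edgeR adjusted p = 0.970). Its sign turned with the GC correction (−0.40), on leaving out WT replicate 1 (−0.21) and on leaving out IRF1-KO replicate 2 (−0.38), and leaving out WT replicate 3 gave 0.51. IRF7 has the highest transcript GC content of the 8 members, 66.9%, against a median of 48.5% over tested genes, and the level of genes over 65% GC moved with the groups. Their median log2 CPM deviation was −0.59, −0.13 and −0.10 across the WT pools, against 0.10, 0.46 and 0.31 across the IRF1-KO pools. The part of GC content in the IRF7 values was not tested beyond that correction.

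IRF5 (ENSG00000128604.20; chromosome 7, 128937457 to 128950038, plus strand) was low, with 2.02, 3.70 and 2.69 CPM across the WT pools and 1.95, 2.02 and 2.58 CPM across the IRF1-KO pools. The groups overlapped (log2 fold change −0.36, 95% interval −1.11 to 0.40; edgeR adjusted p = 0.823), and the value was −0.11 without WT replicate 2. IRF4 (ENSG00000137265.15; chromosome 6, 391752 to 411443, plus strand) had 5, 8 and 2 counts in WT and 10, 8 and 7 counts in IRF1-KO. IRF8 (ENSG00000140968.11; chromosome 16, 85899162 to 85922606, plus strand) had 6, 13 and 0 counts in WT and 3, 3 and 15 counts in IRF1-KO. Neither lymphoid and myeloid member passed the filter. At 0 counts in WT replicate 3, IRF8 may still be present at up to 3 counts, or 0.144 CPM. Without the filter the log2 fold changes were 0.48 (95% interval −1.06 to 2.02) for IRF4 and −0.23 (−2.61 to 2.16) for IRF8, so this depth cannot tell whether either differed.

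**Figure D4:**
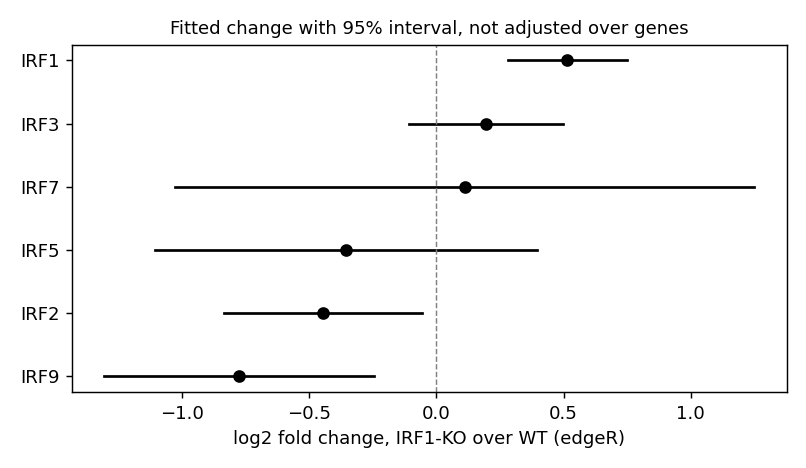
Fitted log2 fold change of IRF1-KO over WT (horizontal axis) for the 6 tested members, with its 95% interval as a line. The intervals of IRF1, IRF2 and IRF9 do not cross 0 before adjustment, and those of IRF3, IRF5 and IRF7 do.

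Levels of different genes were compared per kilobase of counted exon (CPM per kb). In WT, IRF9 stood first at 20.9 ± 3.88 CPM per kb (SD, n = 3) and did not overlap the next gene. IRF1 at 11.2 ± 0.560, IRF2 at 9.92 ± 1.70 and IRF3 at 8.49 ± 0.743 CPM per kb followed, each overlapping its neighbour. IRF7 at 3.39 ± 1.71, IRF5 at 0.617 ± 0.185, IRF8 at 0.0719 ± 0.0737 and IRF4 at 0.0456 ± 0.0288 CPM per kb came last, with only IRF8 and IRF4 overlapping. In IRF1-KO the mean of IRF1 came first, at 16.0 ± 0.967 CPM per kb, and IRF9 second at 12.2 ± 3.34, with overlap between them. IRF3 (9.71 ± 1.07) then stood above IRF2 (7.27 ± 0.985) with no overlap. With the length of the longest protein-coding transcript in place of the counted length, an alternative chosen after seeing the data, 6 of 8 members kept their rank in WT, and IRF3 stood above IRF2.

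As a share of the summed CPM per kb of the 8 genes, IRF1 made up 24.0, 19.2 and 19.0% in WT and 33.4, 28.1 and 36.4% in IRF1-KO replicates 1 to 3. IRF9 made up 35.2, 38.6 and 40.4% in WT and 27.5, 27.4 and 18.8% in IRF1-KO. The shares of these genes did not overlap between groups, and the summed level of the 8 genes did (46.8 to 61.3 CPM per kb in WT, 45.1 to 56.5 in IRF1-KO). Nor did the shares of IRF2 overlap (16.5 to 19.3% in WT, 13.6 to 16.3% in IRF1-KO). Those of IRF3 were also apart (14.1 to 17.7% in WT, 19.2 to 20.6% in IRF1-KO), although its CPM overlapped between groups. A share falls whenever another member rises, so the shares are not independent of each other, and their size depends on the counted lengths.

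**Figure D5:**
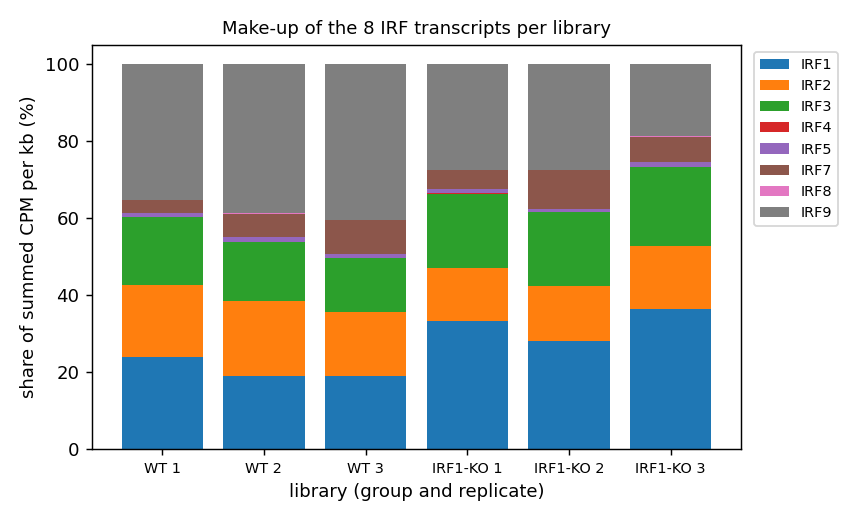
Share of each IRF gene in the summed CPM per kb of the 8 genes (vertical axis, percent) for each library. The IRF1 segment is 19.0 to 24.0% in WT and 28.1 to 36.4% in IRF1-KO, and the IRF9 segment is 35.2 to 40.4% and 18.8 to 27.5%.

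Other genes of the pathway were read from lists of textbook partners, activators and targets. Of 21 tested IRF1 target genes, 19 had negative log2 fold changes, with a median of −0.69, beside 53.3% negative over all tested genes. TLR3, which senses double-stranded RNA in endosomes, and PSMB9, a catalytic subunit of the immunoproteasome, were past the adjusted threshold (edgeR), both lower. TLR3 was at 35.0, 41.7 and 30.7 CPM across the WT pools and at 9.14, 10.5 and 10.0 CPM across the IRF1-KO pools (log2 fold change −1.85 ± 0.16, SE; adjusted p = 0.00737). PSMB9 was at 44.7, 46.8 and 37.9 CPM across the WT pools and at 4.45, 8.03 and 8.43 CPM across the IRF1-KO pools (−2.61 ± 0.24, SE; adjusted p = 0.0108). TLR3 lost the call without IRF1-KO replicate 1 or 3, and PSMB9 lost it without WT replicate 2 or IRF1-KO replicate 3 and with the GC correction combined with the replicate block (adjusted p = 0.0553, edgeR). DESeq2 called 10 of the 21, all lower, beside 0.964% of all tested genes, and 13 were lower before adjustment at p below 0.05, beside 3.75%. PSMB9 overlaps other genes on the opposite strand and is uncertain to that extent.

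None of the remaining lists had a member past the adjusted threshold with edgeR. Without WT replicate 1, 1 gene was called lower in the list of interferon receptors and JAK-STAT signalling and 1 in the list of partners and cofactors. Of 15 tested genes of interferon receptors and JAK-STAT signalling, 14 had negative values (median −0.30), beside 53.3% of all tested genes. Before adjustment 6 of the 15 were lower and 1 was higher at p below 0.05, and DESeq2 called 2. Beside this list and those below, 3.75% of all tested genes were lower and 5.39% higher before adjustment. DESeq2 called 2.48% of all tested genes. The kinases and adaptors that activate IRF3, IRF5 and IRF7 had a median of −0.13 over 16 tested genes, with 2 lower and 1 higher before adjustment and 0 called by DESeq2. Their member with the smallest p was MYD88, the adaptor of most Toll-like receptors, at −0.45 ± 0.13 (SE; edgeR adjusted p = 0.305). IRF partners and cofactors had a median of −0.02 over 15 tested genes, with 3 lower and 2 higher before adjustment and 2 called by DESeq2. The 8 negative regulators had a median of −0.08, with 1 lower and 1 higher before adjustment and 1 called by DESeq2. Among them TRIM21, a ubiquitin ligase that acts on IRF proteins, stood at −0.69 ± 0.16 (SE; edgeR adjusted p = 0.179).

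Interferon ligand transcripts were near the limit of counting. Of 21 ligand genes, 10 had 0 counts in all 6 libraries and 1, IFNE, an epithelial type I interferon, was tested. IFNE was at 1.75, 4.46 and 2.11 CPM across the WT pools and at 0.854, 1.33 and 1.99 CPM across the IRF1-KO pools (log2 fold change −0.98 ± 0.47, SE; edgeR adjusted p = 0.610), with overlap between the groups, and the value was −0.46 without WT replicate 2. IFNB1, a classic target of IRF3 and IRF7, had 5 counts over all libraries.

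The genes most like IRF1 over the 6 libraries, among 10995 others with a mean of at least 5 CPM, were PCMT1, MARCKSL1, ARHGAP33, APRT and TAF1C, with Pearson r of log2 CPM from 0.977 to 0.995. Those most unlike it were ABCD4, MAX, REC8, MOV10 and ERAP2, with r from −0.994 to −0.976. These are descriptions over 6 points that share libraries and a group difference. Of the members, r with IRF1 was 0.73 for IRF3, 0.09 for IRF7, −0.36 for IRF5, −0.64 for IRF2 and −0.84 for IRF9.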

How the data were processed

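The deposited values are whole-number counts per gene, made by the authors with columns in the layout of featureCounts, per the file headers; featureCounts 0.6.1, edgeR 3.2.2 and GRCh38 are named in the submitters' processing notes. Aligner, annotation and strand setting were not given in the sources used here. Gene length in the deposited table is the summed exon length. Symbols came from current names for 19342 identifiers and from GENCODE 29 for 56. The remaining family gene was not analysed here.

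The fit used edgeR 4.0.16 under R 4.3.3 (filterByExpr, TMM factors, robust quasi-likelihood F test, two-sided, threshold 0.05 after Benjamini-Hochberg over all tested genes). CPM are TMM-scaled, and standard errors are those implied by the F statistic. Intervals are at 95% and not adjusted over genes, and a floor of 3 counts covers counting error only. The procedure was tested on simulated counts. The IRF1 to IRF2 ratio used 0.5 added counts. All 8 members were named, and from each list the 3 called genes with the smallest adjusted p at most, or else the 1 tested gene with the smallest p, except 1 gene that is not reported here; for IRF1, the 5 genes with the highest and the 5 with the lowest correlation. The members, lists and tests were chosen with earlier results of these data known. The choices varied were the scaling (RLE, upper quartile), the filter (none, or 5 CPM or more in 3 libraries or more), the tool (DESeq2 1.42.0, limma-voom from limma 3.58.1), the replicate number as a block, a GC correction (natural spline with 5 degrees of freedom, as an offset), both together, and leaving out each library.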

Additional observations from a re-analysis of the deposited data

How the results depend on the processing

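The count of genes past the threshold, 17, was 31 with no filter on low counts, 332 with DESeq2, 31 with the replicate block and 7 at an adjusted p of 0.01, and 3 to 91 when 1 library was left out. No member was called by edgeR under any of its settings, leaving out each library included; DESeq2 called 1 member, IRF1 (0.52). IRF1, IRF2, IRF3, IRF5 and IRF9 kept their direction in all alternatives that could be run, although IRF3 was 0.05 with the GC correction; IRF7 reversed with the GC correction (−0.40), with the GC correction and replicate block (−0.39), and on leaving out WT replicate 1 (−0.21) or IRF1-KO replicate 2 (−0.38); over the libraries left out in turn it ran from −0.38 to 0.51. The cause was not tested. The labels give no pairing beyond a number. Correlations of deviations between same-numbered libraries were −0.02, 0.25 and 0.06, and not every library correlated best with its own number. With 3 libraries per group these values cannot decide whether the libraries were paired. The block called 31 genes, 7 of them ISGF3 targets, all lower. The IRF1 to IRF2 difference was the same 0.96 with same-numbered libraries paired (exact sign-flip p = 0.25, the smallest value that 3 pairs allow). The level order by transcript length kept 6 of 8 ranks. IRF5 could not be tested at the stricter filter. Depth limits IRF4 and IRF8.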
